A study of Mus musculus with 3 samples.

Results

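The genes described here write, copy and remove DNA methylation in mouse embryonic stem cells (mESCs) treated with a MEK inhibitor. They were 10 genes, namely the DNA methyltransferase genes Dnmt1, Dnmt3a, Dnmt3b and Dnmt3l, the genes Uhrf1 and Uhrf2, the TET dioxygenase genes Tet1, Tet2 and Tet3, and the DNA glycosylase gene Tdg. Every array probe whose RefSeq accession belongs to one of these genes was taken, which gave 20 of the 55681 probes that were not controls, and 10 of the 20660 genes that could be named. The probes were taken by gene name and not by a measured value, and the genes were chosen with earlier results of these data known.

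J1 is an mESC line of the strain 129S4/SvJae, derived from the inner cell mass. The cells grew without feeder cells on gelatin in serum replacement medium that held 1000 U/mL of leukemia inhibitory factor (LIF), and all samples received the MEK inhibitor PD0325901 (PD) at 1 µM for 24 h. MEK is the kinase that activates ERK. The 3 samples were replicates 1 to 3 of this 1 group, from independent experiments according to the methods of the study, and each was hybridised in 1 colour to its own Agilent array. Cells without PD were not analysed here, so treated cells could not be set against untreated ones and no effect of PD on these genes was tested.

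DNA methylation in mammals is carried mainly by cytosine in CpG dinucleotides. DNMT3A and DNMT3B set new methylation with the catalytically inactive cofactor DNMT3L, and DNMT1 copies methylation onto the new strand after replication, guided by UHRF1. TET enzymes oxidise methylcytosine, and TDG excises the more oxidised forms so that base excision repair can restore unmethylated cytosine. Mouse ESCs are known to express most of this machinery, and inhibition of MEK together with GSK3 is known to accompany low global methylation in them.

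The promoters of these genes differ in how many CpG they hold, which matters because CpG is the target of the enzymes themselves. In the RefSeq annotation of GRCm38.p6 the window from 250 bases before to 50 bases after a transcript start was taken. The 10 genes had 17 such windows. Not every start was covered, since the annotated Dnmt3a, Tet2 and Tet3 genes begin upstream of all their windows. The dinucleotide CG, which reads the same on both strands, was found in 94.6% of the 32851 promoters of all genes, with a median of 7 per promoter. Taking for each gene its window with the most CpG, Dnmt3l held 6, Tet1 17, Tet3 22, Tdg 26, Uhrf2 28, Dnmt3b 30, Dnmt1 33, Uhrf1 33, Dnmt3a 47 and Tet2 57. A window with a GC content over 50% and an observed over expected CpG ratio over 0.6 was present in 8 of the 10 genes, against 35.8% of all genes. The exceptions were Dnmt3l, with a ratio of 0.27, and Tet3, with a ratio of 0.58 in its only window. Of these 10 windows, 1 a gene, those with the fewest and the most CpG are printed; other windows of Dnmt3l and Dnmt1 held fewer. They are given 5′ to 3′ on the strand of the gene, with each CpG in capitals. The window of Dnmt3l lies at chr10:78042037-78042336 on the plus strand and that of Tet2 at chr3:133544341-133544640 on the minus strand. More CpG than in 99.8% of promoters were counted in the Tet2 window.
Dnmt3l: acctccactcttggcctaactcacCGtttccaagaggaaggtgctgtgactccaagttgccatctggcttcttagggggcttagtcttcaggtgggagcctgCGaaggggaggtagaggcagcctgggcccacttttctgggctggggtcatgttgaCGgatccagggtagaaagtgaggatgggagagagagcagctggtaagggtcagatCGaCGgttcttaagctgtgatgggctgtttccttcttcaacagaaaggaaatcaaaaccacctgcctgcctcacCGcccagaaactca
Tet2: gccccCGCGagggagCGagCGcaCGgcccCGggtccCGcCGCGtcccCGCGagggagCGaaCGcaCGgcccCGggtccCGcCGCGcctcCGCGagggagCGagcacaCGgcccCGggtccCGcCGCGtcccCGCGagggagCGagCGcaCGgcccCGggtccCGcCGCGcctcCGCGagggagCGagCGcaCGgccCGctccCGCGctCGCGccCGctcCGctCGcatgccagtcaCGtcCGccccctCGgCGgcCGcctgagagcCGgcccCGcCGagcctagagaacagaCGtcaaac
The arrays measured RNA, so no methylation of these CpG was observed.

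**Figure D1:**
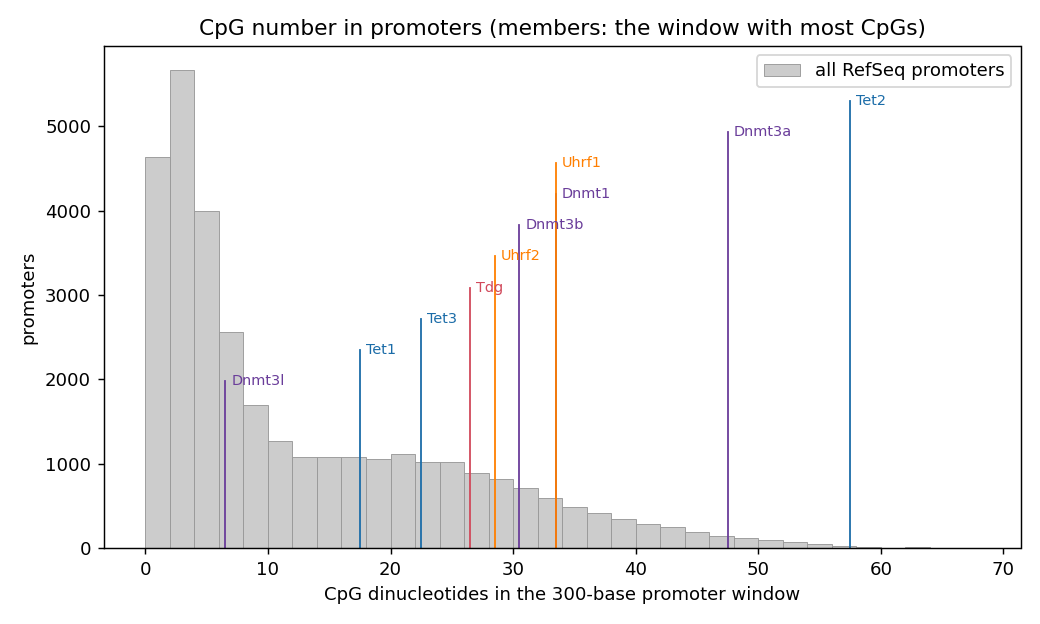
Histogram of the number of CpG (x axis) over the 300-base promoter windows of all genes, with the number of promoters on the y axis and a vertical line at the window with the most CpG of each of the 10 genes. Dnmt3l, at 6, is the gene of the 10 below the median of 7, and Tet2, at 57, is the farthest to the right.

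Each level given here is a log2 processed signal from which the 75th percentile of the array, taken over probes, was subtracted. A negative level is thus dimmer than that percentile. Probes detected on all arrays were also split by their mean level into 4 brightness classes of equal size. The percentile lay at a signal of 511 to 551, the lowest signal flagged well above background was 10.1 to 11.4, and 63.1% to 65.2% of probes were well above background on an array. No spot was saturated. Replicate 2 had 187 non-uniform spots, against 25 and 8 on replicates 1 and 3, and they were concentrated in 6 of 48 blocks of the array. No probe of the 10 genes lay in these blocks, and none carried an outlier flag. By at least 1 probe well above background on each array, 72.8% of all named genes were detected. Of the mESC markers 8 of 8 were detected, among them Esrrb at a level of 6.28, Zfp42 at 5.62 and, the lowest, Nanog at 0.39. Of the fibroblast markers 6 of 10 were detected, among them Vim, which is not restricted to fibroblasts, at a level of 5.61, Thy1 at 0.24, Col1a2 at -0.31 and Col1a1 at -1.23, and Col3a1, Col5a2, Lum and Postn were not. Of the trophoblast markers 5 of 8 were detected, the brightest being Tfap2c at 3.62, and Cdx2, Elf5 and Hand1 were not. Of the primitive endoderm markers 8 of 8 were detected at a median level of -2.72, the brightest being Lama1 at 4.21.

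All 10 genes were detected, which means that at least 1 probe was well above background on all 3 arrays. Of all named genes 72.8% were detected by the same rule. By probe, 19 of 20 were detected, against 72.4% of the probes of named genes and 60.3% of all probes. The exception was the dimmest of 3 Tet3 probes (A_51_P199339), with signals of 5.04, 6.97 and 9.70, which none of the 3 arrays showed well above background. Every probe of the gene was detected for 9 of the 10 genes, against 68% of named genes. Several genes had more than 1 probe, and these are numbered from the brightest. Probes differ in sequence and hence in brightness, so a level cannot be read as the amount of one RNA against another.

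**Figure D2:**
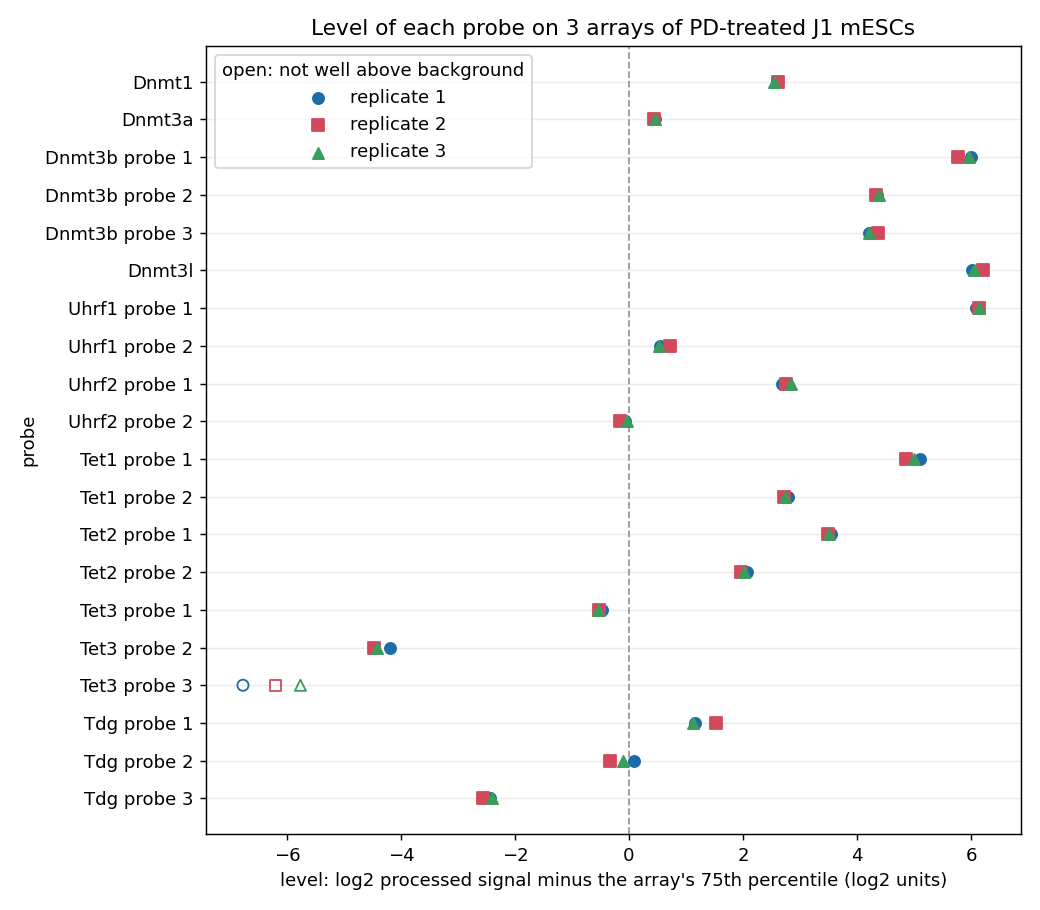
Level of each of the 20 probes (x axis, log2 units above or below the 75th percentile of the array, dashed line at 0), 1 symbol for each of the 3 PD-treated replicates. The 3 symbols of most detected probes nearly coincide, and the open symbols mark Tet3 probe 3, which was not well above background.

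Among the methyltransferases, the maintenance enzyme gene Dnmt1 had levels of 2.59, 2.62 and 2.55 on replicates 1, 2 and 3, a mean of 2.58 ± 0.035 (SD, n = 3). Its highest and lowest arrays were 1.05-fold apart. Dnmt3a, which encodes a de novo enzyme, had levels of 0.45, 0.44 and 0.45, a mean of 0.45 ± 0.0087 (SD, n = 3). This was the smallest SD of the detected probes of the 10 genes under this scaling, but not under every other. With scaling to the median of each array it was 0.053, against 0.011 for Dnmt1. With normexp background correction and the 75th percentile it was 0.039, against 0.010 for Uhrf1 probe 1. The Dnmt3a signals of 752, 691 and 719 followed the 75th percentiles of the arrays closely.

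Dnmt3b, the gene of the other de novo enzyme, had 3 probes, and their arrays did not fall in the same order. Probe 1 (A_55_P2130535) had levels of 6.0, 5.77 and 5.96 and was lowest on replicate 2. Probe 3 (A_55_P1975903) had levels of 4.21, 4.37 and 4.21 and was highest on replicate 2. Probe 2 (A_55_P2008874) had levels of 4.36, 4.33 and 4.38 and was also lowest on replicate 2. The means were 5.91 ± 0.12, 4.36 ± 0.021 and 4.27 ± 0.095 (SD, n = 3 each). Replicate 2 was thus the lowest array in 2 probes and the highest in 1, and no direction could be given for the gene.

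Dnmt3l, the gene of the catalytically inactive cofactor, had levels of 6.01, 6.22 and 6.05, a mean of 6.09 ± 0.11 (SD, n = 3). Its signals were 35583, 38050 and 34850, and the highest and lowest levels were 1.15-fold apart. Replicate 2 was above both other arrays for this probe.

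Uhrf1 encodes the reader of hemimethylated CpG that brings DNMT1 to new DNA. Its probe 1 (A_55_P2035286) had levels of 6.09, 6.14 and 6.14, a mean of 6.12 ± 0.025 (SD, n = 3). Its probe 2 (A_66_P120074) had levels of 0.55, 0.72 and 0.52, a mean of 0.60 ± 0.11. Probe 2 was highest on replicate 2, while replicates 2 and 3 had the same rounded level in probe 1.

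Uhrf2, the paralog of Uhrf1, was measured by 2 probes. Probe 1 (A_51_P141772) had levels of 2.68, 2.75 and 2.85, a mean of 2.76 ± 0.084 (SD, n = 3). Probe 2 (A_52_P220485) had levels of -0.07, -0.15 and -0.03, a mean of -0.09 ± 0.061. Both probes were highest on replicate 3, but the lowest array was replicate 1 for probe 1 and replicate 2 for probe 2.

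Tet1, whose product is a main TET enzyme of mESCs, had levels of 5.11, 4.85 and 5.01 at probe 1 (A_55_P2122997), a mean of 4.99 ± 0.13 (SD, n = 3). Probe 2 (A_51_P512172) had levels of 2.79, 2.71 and 2.73, a mean of 2.74 ± 0.041. Both Tet1 probes placed the arrays in the same order, with replicate 1 highest and replicate 2 lowest.

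Tet2, the gene of another TET enzyme known to be expressed in mESCs, gave the same order as Tet1. Probe 1 (A_55_P2081303) had levels of 3.55, 3.49 and 3.51, a mean of 3.51 ± 0.032 (SD, n = 3), and probe 2 (A_55_P2051405) had levels of 2.07, 1.97 and 2.01, a mean of 2.02 ± 0.050. The log2 ratio of the Tet2 probes was 1.48, 1.52 and 1.5, with an SD of 0.019, the smallest of the 11 pairs of probes within these genes.

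Tet3, a TET gene known for its role in the zygote, was detected by 2 of 3 probes. Probe 1 (A_55_P2175260) had levels of -0.48, -0.53 and -0.55, a mean of -0.52 ± 0.035 (SD, n = 3). Probe 2 (A_52_P491273) had signals of 30.1, 23.0 and 24.7 and levels of -4.20, -4.48 and -4.41, a mean of -4.36 ± 0.15, or -2.79 after normexp background correction. This probe lay in the dimmest brightness class, where SDs were widest.

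All 6 detected TET probes had their highest level on replicate 1, a pattern noticed after the values were seen. Over all detected probes replicate 1 was the highest array in 28.6%, and over the brighter 2 of the 4 classes in 22.3%. The differences were small. Replicate 1 exceeded replicate 2 by a median of 0.089, from 0.049 to 0.28, and replicate 3 by a median of 0.065, from 0.043 to 0.22. The 6 probes belong to 3 genes and share the scaling of each array, and with scaling to the median of each array, or with normexp and quantile normalization, the count was 5 of 6.

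Tdg, the gene of the glycosylase that excises oxidised methylcytosine, had the 2 detected probes with the largest SDs of the 10 genes. Probe 1 (A_55_P2044091) had levels of 1.16, 1.52 and 1.13, a mean of 1.27 ± 0.22 (SD, n = 3). Replicate 2 was highest there, with a signal of 1466 against 1227 and 1150. Probe 2 (A_55_P2121364) had levels of 0.09, -0.33 and -0.11, a mean of -0.12 ± 0.21, and replicate 2 was lowest. Probe 3 (A_66_P116265) had levels of -2.45, -2.56 and -2.40, a mean of -2.47 ± 0.081, and replicate 2 was again lowest.

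Replicate 2 therefore departed from the mean of the other arrays by 0.38 at Tdg probe 1, by -0.33 at probe 2 and by -0.14 at probe 3. Under the other scalings and background corrections these values were 0.31 to 0.39, -0.27 to -0.39 and -0.06 to -0.20, so the signs held. The log2 ratio of probe 1 to probe 2 was 1.06, 1.85 and 1.23, and its SD of 0.42 was the widest of the 11 pairs. The SDs of probes 1 and 2 stood at percentiles 95.2 and 94.9 of the SDs in their brightness class, and that of probe 3 at 35.4 of its own. Replicate 2 was highest at probe 1 and lowest at probes 2 and 3, so no direction could be given for the gene.

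The RefSeq annotation also lists loci named as pseudogenes of Tdg, Dnmt3a, Dnmt3b and Dnmt3l, 5 in all, of which 1, Tdg-ps2, had a probe of its own. That probe, chosen for display after its values were seen, was detected and had levels of 0.62, 0.93 and 0.62, a mean of 0.72 ± 0.18 (SD, n = 3). It was highest on replicate 2 like Tdg probe 1, as were 41.4% of all detected probes and 47.8% of those in the brighter 2 classes. Probe sequences were not used here, so whether Tdg-ps2 RNA binds the Tdg probes was not tested, and the levels of Tdg are uncertain to that extent.

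**Figure D3:**
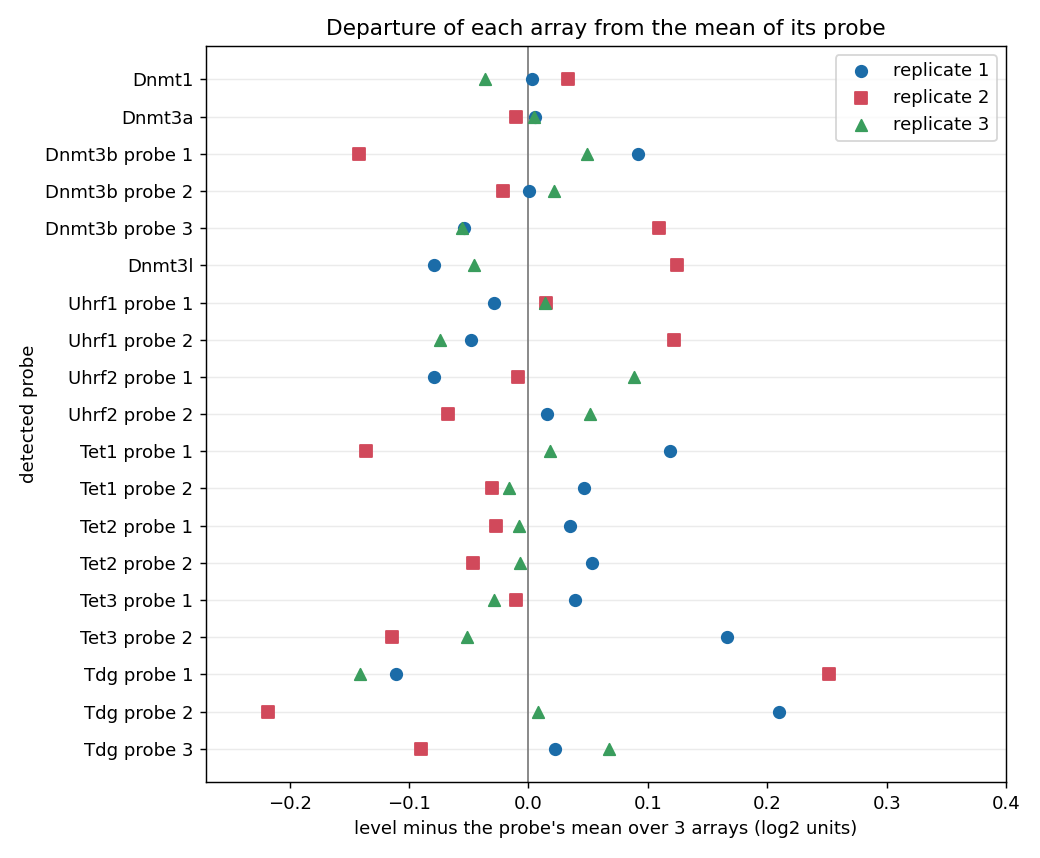
Level of each detected probe on each replicate minus the mean of that probe over the 3 replicates (x axis, log2 units, line at 0). The TET probes have replicate 1 farthest to the right, and Tdg probes 1 and 2 place replicate 2 on opposite sides of 0.

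The spread between the 3 cultures was compared with that of all probes. The median SD of the 19 detected probes was 0.081 (0.0087 to 0.22), and that of the 33474 detected probes with unflagged spots was 0.090. Because SD falls with brightness, from a median of 0.19 in the dimmest class through 0.11 and 0.071 to 0.058 in the brightest, each probe was also set beside its own class. In the brightest class lay 11 of the probes, in the second brightest 6, and in the others 1 each. The SD was below the median of its class for 11 of 19 probes. By role, the median SD was 0.065 for the 6 methyltransferase probes, 0.073 for the 4 Uhrf probes, 0.046 for the 6 detected TET probes and 0.21 for the 3 Tdg probes.

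None of the 19 probes had its highest and lowest array more than 1.5-fold apart, against 7.35% of all detected probes, 4.86% of those of named genes, 2.04% of the brightest class and 2.06% of the second brightest. None was more than 2-fold apart, against 1.85%, 1.13%, 0.729% and 0.454% in the same order. The largest range was 1.34-fold, at Tdg probe 2, and the median was 1.12-fold, against 1.13-fold over all detected probes. No probe of the 10 genes had more than 1 spot, so the error of a single measurement was not known for them. There were 271 probes with 10 spots per array and a mean level from -4.36 to 6.12, the range of the 19 probes. Their median SD between spots was 0.066, 0.082 and 0.071 on the 3 arrays. They were not matched to the brightness classes of the 19 probes.

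**Figure D4:**
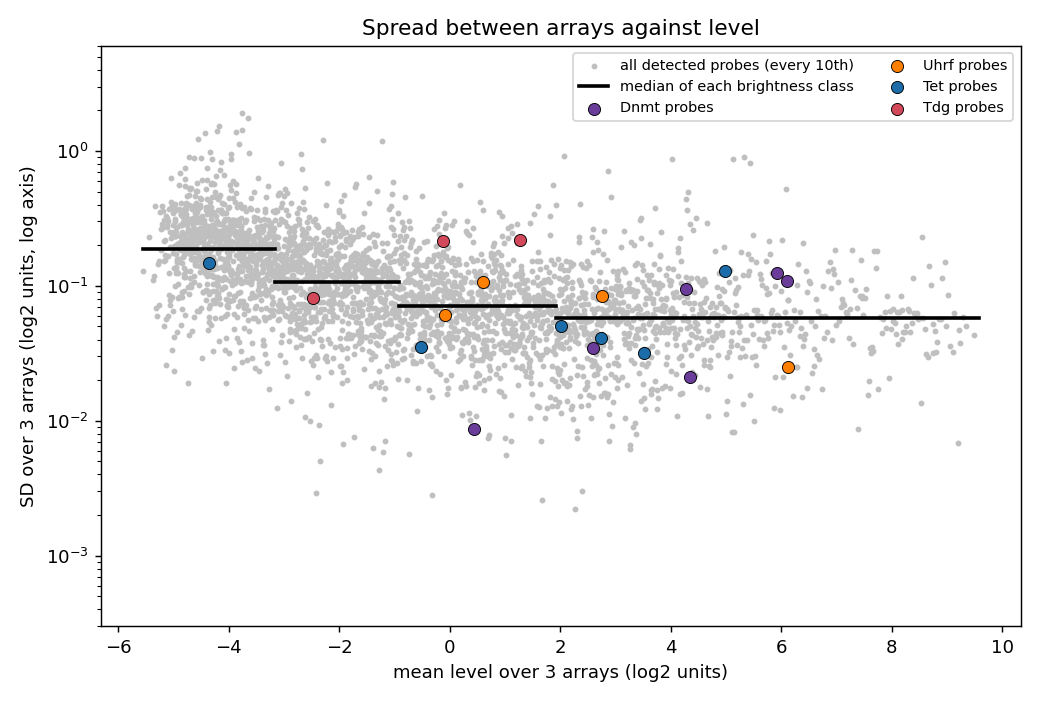
SD over the 3 arrays (y axis, log2 units on a log axis) against mean level (x axis, log2 units) for the detected probes of the 10 genes, coloured by role, and for every 10th detected probe in grey, with the median of each brightness class as a line. Tdg probes 1 and 2, with SDs of 0.22 and 0.21, lie above the line of their class, and Dnmt3a, at 0.0087, lies far below it.

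The arrays did not contribute equally to this spread. Of the 19 probes, 9 were highest on replicate 1, 6 on replicate 2 and 4 on replicate 3, where all detected probes gave 28.6%, 41.4% and 29.9%. The lowest array was replicate 1 for 3 probes, replicate 2 for 11 and replicate 3 for 5, where all detected probes gave 34.4%, 31.2% and 34.4%. Over the brighter 2 of the 4 classes the shares were 22.3%, 47.8% and 29.9% for the highest array and 38.2%, 28.5% and 33.4% for the lowest. The counts of the 19 probes moved with the scaling. With the median of each array they were 6, 4 and 9 for the highest and 5, 14 and 0 for the lowest. The replicate farthest from the other 2 was replicate 2 for 11 of the 19 probes, against 41.2% of all detected probes. Without replicate 2 the median SD was 0.030. The median absolute difference of the probes was 0.10 for replicates 1 and 2, 0.043 for replicates 1 and 3, and 0.098 for the remaining pair, where all detected probes gave 0.11, 0.090 and 0.11.

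Whether probes of 1 gene ranked the arrays alike was asked for the 11 pairs of detected probes within these genes. The order was the same in 2 pairs, those of Tet1 and Tet2, against 22.3% of the 5621 pairs of all named genes. The highest array was the same in 5 pairs, against 40.7%, and the lowest in 4, against 38%. The median SD of the log2 ratio between the probes was 0.11, as it was over all pairs.

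**Figure D5:**
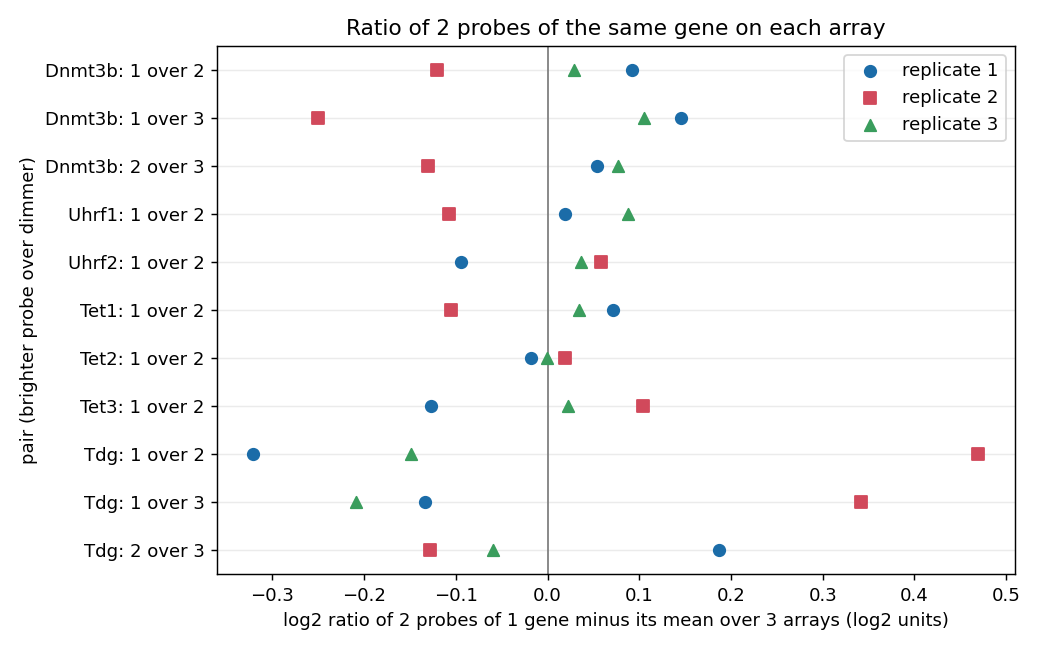
Log2 ratio of 2 probes of the same gene on each replicate minus its mean over the 3 replicates (log2 units), 1 row for each of the 11 pairs. The ratio of Tdg probes 1 and 2 has the widest spread, with an SD of 0.42, and that of the Tet2 probes the narrowest, with 0.019.

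Genes that work with these enzymes were described by lists, with the brightest detected probe of each gene. The counts of detected genes stand against 72.8% of all named genes. Of the listed genes of the methyl-CpG-binding domain (MBD) and ZBTB zinc finger families, 10 of 10 were detected. Their median SD was 0.074, beside 0.074 over all detected named genes. Not every member of these families binds methylated CpG. Examples, taken by their level, were Mbd3, a subunit of the NuRD complex, at a level of 5.50, Mbd6 at 2.19 and Mbd2 at 1.63. Of the base excision repair genes, which hold other glycosylases and the enzymes that act after them, 13 of 13 were detected. Apex1, the main endonuclease of that pathway, had a level of 5.23 and the scaffold gene Xrcc1 4.96. The uracil glycosylase gene Ung had levels of 5.28, 4.69 and 5.36, 1.58-fold apart, and its spot lay in one of the blocks of replicate 2 with non-uniform spots.

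Of the genes for maintenance and targeting of methylation, 12 of 12 were detected with a median SD of 0.050. Pcna, the replication clamp, had a level of 6.74 ± 0.024 (SD, n = 3), Trim28, the corepressor of KRAB zinc finger proteins, 6.71 ± 0.059, and the histone methyltransferase gene Ehmt2 5.46 ± 0.054. Of the genes for TET partners and the supply of the cofactor oxoglutarate, 10 of 11 were detected and Cxxc4 was not. Idh2, which makes oxoglutarate in mitochondria, had a level of 6.22, Gadd45g 3.64 and Gadd45b 3.27. Cxxc5 had levels of 2.12, 1.12 and 2.00, 2.00-fold apart, and its spot lay in a block with non-uniform spots. Of the genes for the supply of the methyl donor S-adenosylmethionine, 5 of 6 were detected, and the liver enzyme gene Mat1a was not. Mat2a, the synthase gene of most other tissues, had a level of 5.89 ± 0.029 and its regulatory subunit gene Mat2b 4.75.

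Germline genes whose promoters are known to be silenced by methylation in somatic cells were detected in 10 of 10 cases, against 72.8% of all named genes, with a median SD of 0.054 and a median level of 0.80, both without Slc25a31, whose spot was flagged as an outlier on replicate 2. Examples, taken by their level, were Taf7l at a level of 2.53, the piRNA pathway gene Mael at 2.31 and Sycp3, a component of the synaptonemal complex, at 1.25. The lowest was Asz1 at -5.06, with signals of 16.3, 15.0 and 16.5, close to the lowest signals flagged well above background. In the lists of cell type markers, genes over 1.5-fold between arrays were Pou5f1, with levels of 4.35, 5.04 and 4.28, and Dab2, with levels of -3.14, -2.51 and -3.10. In both, replicate 2 was highest.

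The genes most like Tdg probe 1, the probe with the largest SD, were sought by the distance between deviations from the mean over the 3 arrays, among 15002 detected named genes. The closest were Aifm3, at a distance of 0.0073, H3c11 at 0.0091 and Lrrc36 at 0.013, and 54 genes lay within 0.05. With 3 arrays such a likeness describes 1 shape, with replicate 2 high and the others alike.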

How the data were processed

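The authors scanned 1-colour Agilent arrays of PD-treated J1 mESCs. Per the file headers, the deposited intensities were made with Agilent Feature Extraction 10.7.3.1 (10.7 in the submitters' processing notes), with background subtracted within each array and no normalization between arrays. The authors also deposited a log2 table, whose normalization is not given in the sources used here. Its columns follow the log2 of the processed signal (Pearson r of at least 0.99987) and have equal medians. All 3 arrays shared 1 slide and 1 scan, per the headers.

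Accessions without versions were matched to the gene annotation of RefSeq (GRCm38.p6), which named 27235 of 55681 probes (48.9%). Processed signals were log2 transformed, averaged over spots without outlier flags and centred on the 75th percentile of each array. A probe was detected where at least 50% of its spots were well above background. SDs and fold ranges are over 3 arrays, whose number limits their precision. Python 3.11.15, numpy 2.4.6, pandas 2.3.3 and R 4.3.3 with limma 3.58.1 were used, and the level and spread functions were tested on simulated data. With 1 group no test between groups was made. All 10 genes are named with every probe. From the other lists the genes not detected, those over 1.5-fold and at most 3 with the highest level are named, as are the 3 genes nearest to the most variable probe. Outside this rule, Col1a1, Slc25a31 and the lowest genes of their lists, Nanog and Asz1, are also named. The lists, like the genes, were chosen with earlier results of these data known. Alternatives were other scalings, the deposited table, filters on dim probes, another detection flag, 1 probe a gene and leaving out each replicate. Another was normexp with an offset of 50, started from the median spot signal, as no mean raw signal was in the files.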

Additional observations from a re-analysis of the deposited data

How the results depend on the processing

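The median SD of the detected probes of the 10 genes was 0.081, and it lay between 0.056 (normexp, 75th percentile) and 0.084 (deposited table) over the other scalings and background corrections. It was 0.060 with 1 probe a gene, 0.061 with the brighter probes and 0.083 without a filter on dim probes. Leaving out each replicate gave 0.030 to 0.071 over the 2 remaining arrays, the lowest without replicate 2. The count of probes over 1.5-fold was 0 and remained 0 without each replicate and under the other settings except that without a filter on dim probes, where it was 1, the Tet3 probe that was not well above background. Levels moved by -0.022 to -0.0025 with quantile normalization, while scaling to the median of each array raised all of them by 3.74, so a level has meaning only against its own zero. Normexp with the 75th percentile moved 16 of 20 levels by more than 1 SD between replicates, by -0.36 to 1.57 among detected probes, the highest at Tet3 probe 2 (-4.36 to -2.79). Detection was also counted by the flag for a signal that is positive and significant. By that flag 10 of 10 genes, 7 of 8 trophoblast markers and 8 of 10 fibroblast markers were detected. So were 11 of 11 genes for TET partners and oxoglutarate supply and 6 of 6 for S-adenosylmethionine supply, with Cxxc4 and Mat1a among them. Tet3 probe 3 carried that flag on all 3 arrays. No paired analysis was possible because the design has a single group. The moderated F test between arrays on probes with 10 spots and its alternatives were not run, since no probe of these genes had 10 spots, and naming by a platform annotation was not run, since none was used here. With 1 spot per probe, the error of a single array was not measured, and signals near 10, where spots begin to be flagged well above background, limit what can be seen of Tet3 probe 3.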
